A study of Mus musculus with 9 samples.

Results

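The libraries described here are the 5 made from Nestin-GFP positive cells of the adult mouse dentate gyrus (DG 1 to DG 5, named by the replicate number in their titles). They were chosen by title, and are 5 of the 9 libraries of a series whose other 4 come from the subventricular zone and enter no comparison here. All 14477 genes of the deposited table were used. The mice carried the transgene of the strain B6.Cg-Tg(Nes-EGFP)1Yamm, were kept in standard housing under a 12:12 light cycle and received no treatment. The dentate gyrus was dissected and digested with enzymes, fluorescent cells were sorted, and RNA was extracted from the sorted cells. cDNA was primed with poly-dT and completed by template switching, amplified for 12 cycles, sheared and turned into unstranded libraries. Reads carry no molecular identifiers, so each count can hold PCR copies. The labels state neither the age in weeks, nor the sex of the mice, nor whether a library came from 1 animal or a pool. The 5 libraries form a single group, so no test between groups was made and every spread below describes these 5 libraries, where technical and biological sources cannot be told apart.

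The dentate gyrus is a part of the hippocampus in which neurons are made in adult life. Radial glia-like stem cells, which share many genes with astrocytes, give rise to dividing intermediate progenitors, then to neuroblasts and finally to glutamatergic granule neurons. Nestin is an intermediate filament protein of stem and progenitor cells, and Nestin reporters are also known to label pericytes and other cells of vessel walls. A reporter sort therefore selects by the activity of the transgene's regulatory sequence and by protein that persists in daughter cells, and not by one cell type.

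The libraries held 33627909 to 41164044 reads over the genes of the table, and 14461 to 14475 genes had at least 1 read in a library. A level is given as log2 CPM, the log2 of reads per 1000000 reads with a prior count of 1 read, so that a difference of 1 equals 2-fold and low levels are drawn together. A single read was worth 0.0243 to 0.0297 CPM. The 100 most abundant genes took 21% to 23.2% of the reads, and mitochondrially encoded genes took 0.496% (DG 2) to 0.698% (DG 3). Across genes, Pearson's r between pairs of libraries ran from 0.956 (DG 2 and DG 3) to 0.985 (DG 1 and DG 4), a description over genes, which are not replicates.

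Sex-linked genes separated 2 libraries from the rest. Xist, the X-inactivation RNA of female cells, had 1079, 1276, 31, 1357 and 1954 reads in DG 1 to DG 5. Ddx3y, an RNA helicase gene of the Y chromosome, had 1892, 1608, 5002, 1517 and 10 reads in the same order. DG 1, DG 2 and DG 4 thus held many reads of both genes, DG 3 was high in Ddx3y with few Xist reads, and DG 5 was high in Xist with few Ddx3y reads. The Y-linked genes Uty and Kdm5d followed Ddx3y: Uty stood at 3.97, 3.91, 5.40, 3.82 and -2.01 log2 CPM, and Kdm5d at 4.20, 3.40, 4.67, 3.19 and -2.33. Of the 5 Y chromosome genes averaging at least 0 log2 CPM, DG 5 was at least 2-fold below all other libraries in 4. DG 3 was at least 2-fold above all other libraries in 3 of the 5. Xist overlaps its antisense gene Tsix, and unstranded reads of the pair cannot be told apart. DG 3 and DG 5 are also the libraries with the largest sets of genes apart from the others, so the sex-linked difference moves with what is described for them below, and its part in those results was not tested.

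The labelled cell type was checked against its markers. Nes itself stood at 6.20, 6.99, 6.15, 6.16 and 5.89 log2 CPM, highest in DG 2 and lowest in DG 5. The astroglial filament gene Gfap stood at 9.97, 9.27, 9.72, 9.68 and 9.73, and Sox2, a transcription factor of neural stem cells, at 4.92, 5.26, 4.88, 5.25 and 5.08. All of these were read in every library, and none ranged by more than 2.14-fold. Mki67, a gene of dividing cells, stood at 6.38, 5.97, 6.55, 6.67 and 6.25. Markers of later stages were present as well: Eomes, of intermediate progenitors, at 5.43, 5.46, 5.37, 5.63 and 5.65, and Dcx, of neuroblasts, at 7.94, 8.57, 7.60, 7.86 and 7.67. The markers of stem cells, progenitors and neuroblasts of the granule lineage were thus all present in all 5 libraries.

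The same libraries held markers of cell types outside this lineage. Summed over each list, pericyte genes took 0.702% to 1.49% of the reads, oligodendrocyte precursor genes 0.369% to 0.633%, mature oligodendrocyte genes 0.369% to 0.654%, endothelial genes 0.386% to 0.716% and microglial genes 0.0593% to 0.194%. For scale, the 39 stem and astroglial genes took 3.1% to 4.44% and the 24 neuroblast genes 1.49% to 2.26%. In RNA from many cells, a lower level of a cell type's genes through fewer such cells and through less RNA per cell cannot be told apart.

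Levels of different genes were compared per length, as CPM divided by the summed exon length in kb. The ranking was led by a 123-base microRNA model, Mir6236, at 9557 ± 2195 CPM per kb (SD, n = 5), which was first in every library. Its rank came from its short length, since it took 0.118% of the reads and was only 73rd by CPM. Gm23935, a 57-base model, was likewise 9th per kb at 1383 ± 376 and 2901st by CPM. Poly-dT priming and shearing do not select small RNAs, and what these reads are was not tested.

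Many of the protein-coding genes at the top are known from astroglia. Cst3 (cystatin C, a secreted protease inhibitor) stood at 4959 ± 1008 CPM per kb and was second in every library. Next came Actb, cytoplasmic actin, at 3586 ± 251. Behind these, Tuba1a, a tubulin of young neurons, stood at 2532 ± 726 and Vtn, a secreted protein made by pericytes, at 2168 ± 696. The SD of Tuba1a and Vtn was large against their means, whereas Sparcl1, a matrix protein of astrocytes, stood at 1991 ± 124. Clu (clusterin, a secreted chaperone) at 1798 ± 397 and Aldoc (the aldolase of astrocytes) at 1535 ± 391 followed. Slc1a3, the glial glutamate transporter GLAST, was 12th per kb at 1234 ± 218 and first by reads, taking 1.05% of them. Of the first 20 genes, 17 were protein coding, and of the first 100 it was 94.

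The other coding genes of the first 20 were Dpysl2 (1282 ± 179 CPM per kb), Hsp90ab1 (1125 ± 59.1), Eef1a1 (1082 ± 290), Cd81 (1054 ± 64.9), Gpm6a (1047 ± 93.6), Mfge8 (1021 ± 130), Tmsb4x (1011 ± 253) and Ubb (985.7 ± 96), beside the mitochondrial genes mt-Cytb (1295 ± 255) and mt-Rnr2 (1142 ± 128). Several are genes of most cells: Hsp90ab1 is a chaperone, Eef1a1 an elongation factor and Ubb ubiquitin. Mfge8 is a secreted protein of stem cells and astrocytes, and Gpm6a a membrane protein of neural cells. Eef1a1 and Tmsb4x, an actin-binding peptide gene, had wide SDs against their means, and both were lowest in DG 3.

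Genes that define the sorted lineage were spread widely over the ranking of 14433 genes with a gene model. Neurod1, a transcription factor of late progenitors and young granule neurons, was 157th per kb over the 5 libraries and between 136th and 208th in each. Gfap was 191st (146th to 285th) and Gja1, the astrocyte gap junction protein, 203rd. Prox1, the granule cell identity factor, was 1865th, Dcx 2667th and Sox2 3125th. Nes, which drives the reporter, was only 3910th (2677th to 4683rd), behind the pericyte gene Rgs5 at 82nd and the oligodendrocyte lineage gene Gpr17 at 105th. Apoe, a lipid carrier of glia and macrophages, was 57th but ranged from 26th to 292nd, and the microglial complement gene C1qb was 258th with a range from 129th to 1000th. Dlx1, a transcription factor of GABAergic lineages, was 8260th with the widest range of those named here, from 3766th to 12347th.

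For the spread between libraries, 13929 genes averaging at least 0 log2 CPM were described and 548 were left aside as low. The median gene had a range of 0.60 log2 units between its highest and lowest library, or 1.51-fold, with quartiles of 0.39 and 0.94, and a median SD of 0.24. A range of at least 2-fold was found in 3142 genes (22.6%), of at least 4-fold in 589 (4.23%) and of at least 16-fold in 64. Over all 14477 genes of the table the 2-fold share was 24.9%. DG 3 and DG 5 carried much of this spread, since without DG 3 the 2-fold count was 2070 and without DG 5 it was 2027. For the 4-fold count, 272 genes were left without DG 3 and 388 without DG 2. Counting error alone was small at this depth: the index of variance over the counting expectation had a median of 20.9, and in 94.6% of genes it was above 2.37, the 95th percentile for counting error.

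At the other end, 1366 genes ranged by less than 1.2-fold. The steadiest of those averaging at least 3 log2 CPM was Bfar, a regulator of cell death, at 6.92, 6.93, 6.90, 6.89 and 6.90 log2 CPM. Its dispersion index was 0.74, no more than counting error. Actr1b, a subunit of the dynactin complex, stood at 7.29, 7.32, 7.29, 7.28 and 7.27. The next steadiest were Pard3 (cell polarity), Lmf2, Gpn3, Mtdh, Hps4, Ccdc127, Vps11 (endosome transport) and Sfxn4, of which the last had a range of 0.074. None of these 10 is a marker in the lists used here.

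A library was counted as apart from the rest in a gene when it was at least 2-fold above or below all of the other 4. At least 1 library was apart in 762 genes. DG 3 was above in 359 genes (2.58%) and below in 14 (0.101%), and DG 5 was below in 212 (1.52%) and above in 2 (0.0144%). DG 2 was below in 90 genes (0.646%) and above in 56 (0.402%). DG 4 was below in 40 (0.287%) and above in 0 (0%), and DG 1 was above in 8 (0.0574%) and below in 5 (0.0359%). The counts are lopsided: DG 3 stood out almost always upward, and DG 5 and DG 4 almost always downward. Without the 2-fold margin the libraries were more alike, with DG 1 the highest in 20.9% and the lowest in 11.3% of all 14477 genes, DG 2 in 21.6% and 15.7%, DG 3 in 26.7% and 24.6%, DG 4 in 10.8% and 16.7%, and DG 5 in 20% and 31.6%. These shares are the background for the list counts below.

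**Figure D1:**
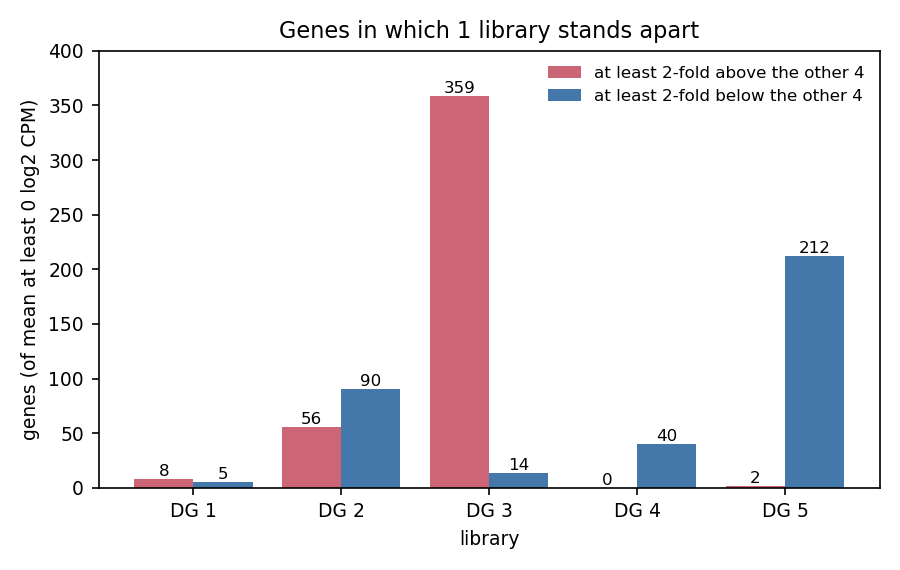
Number of genes (y axis, of 13929 averaging at least 0 log2 CPM) in which each dentate gyrus library (x axis) was at least 2-fold above (red) or below (blue) all of the other 4. DG 3 has the tallest bar, 359 genes above, and DG 5 the next, 212 genes below.

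Principal components of the centred log2 CPM values placed the libraries in the same way. The first component held 44.3% of the spread and set DG 3 (score 51.69) apart from DG 5 (-22.20), DG 2 (-19.96), DG 4 (-14.35) and DG 1 (4.82). Its positive end was led by the neuronal genes Mal2, Nptx1, Adcy1, Scg2 and Slc24a2 with the Y-linked Ddx3y and Uty. Its negative end was led by Xist, Ttr, Hist1h4d, Dlx6os1, Dlx1, Rps21, Meis2 and Sp8. The second component, 27.6%, ran from DG 5 (38.46) to DG 2 (-26.70), and the third, 16.8%, from DG 1 (25.58) to DG 2 (-22.42). The fourth, 11.3%, ran from DG 4 (24.55) to DG 1 (-16.99). DG 3 thus had the first component largely to itself, and the next 3 components separated the other 4 libraries from one another.

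**Figure D2:**
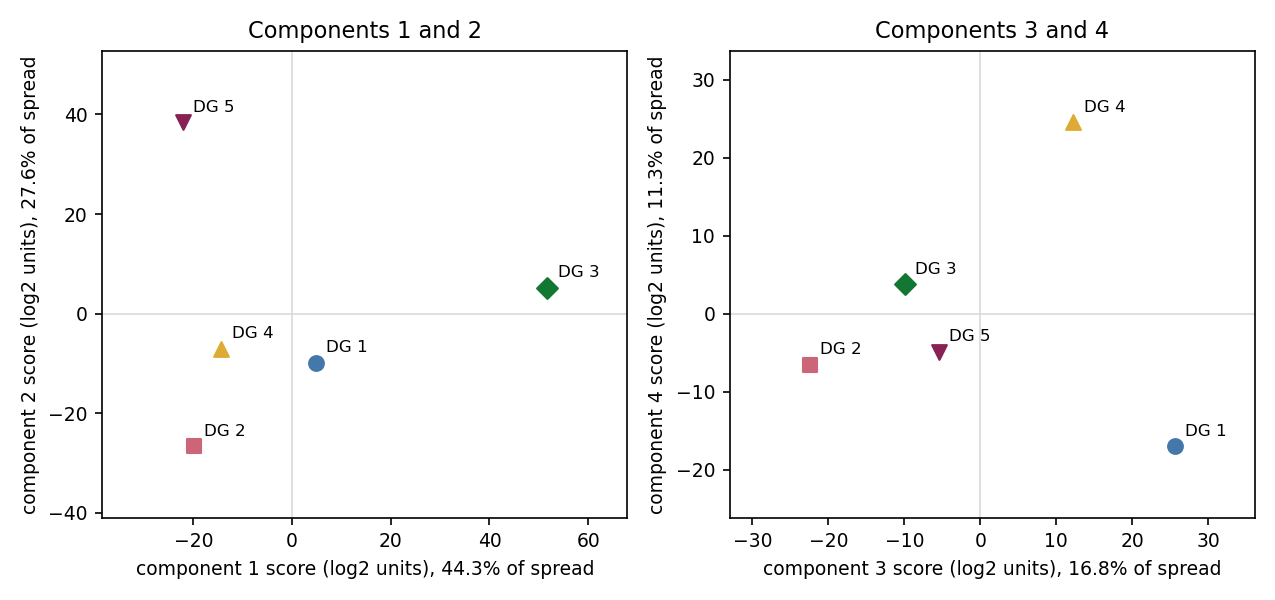
Scores of the 5 dentate gyrus libraries on principal components 1 and 2 (left) and 3 and 4 (right) of centred log2 CPM, in log2 units, with the share of spread on each axis label. DG 3 stands alone on component 1 at 51.69, DG 5 on component 2 at 38.46, and components 3 and 4 separate DG 1, DG 2 and DG 4.

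To read these patterns by cell type and process, 34 gene lists were averaged in each library. The mean of 10 lists ranged by at least 2-fold between libraries: ventral GABAergic lineage, mature neuron, border macrophage, choroid plexus, microglia, blood, cytokine, pericyte, endothelial and sex-linked genes. Without DG 2 the number was 5. Lists of the stem cell and granule lineage itself and of general metabolism were among the steadier ones.

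**Figure D3:**
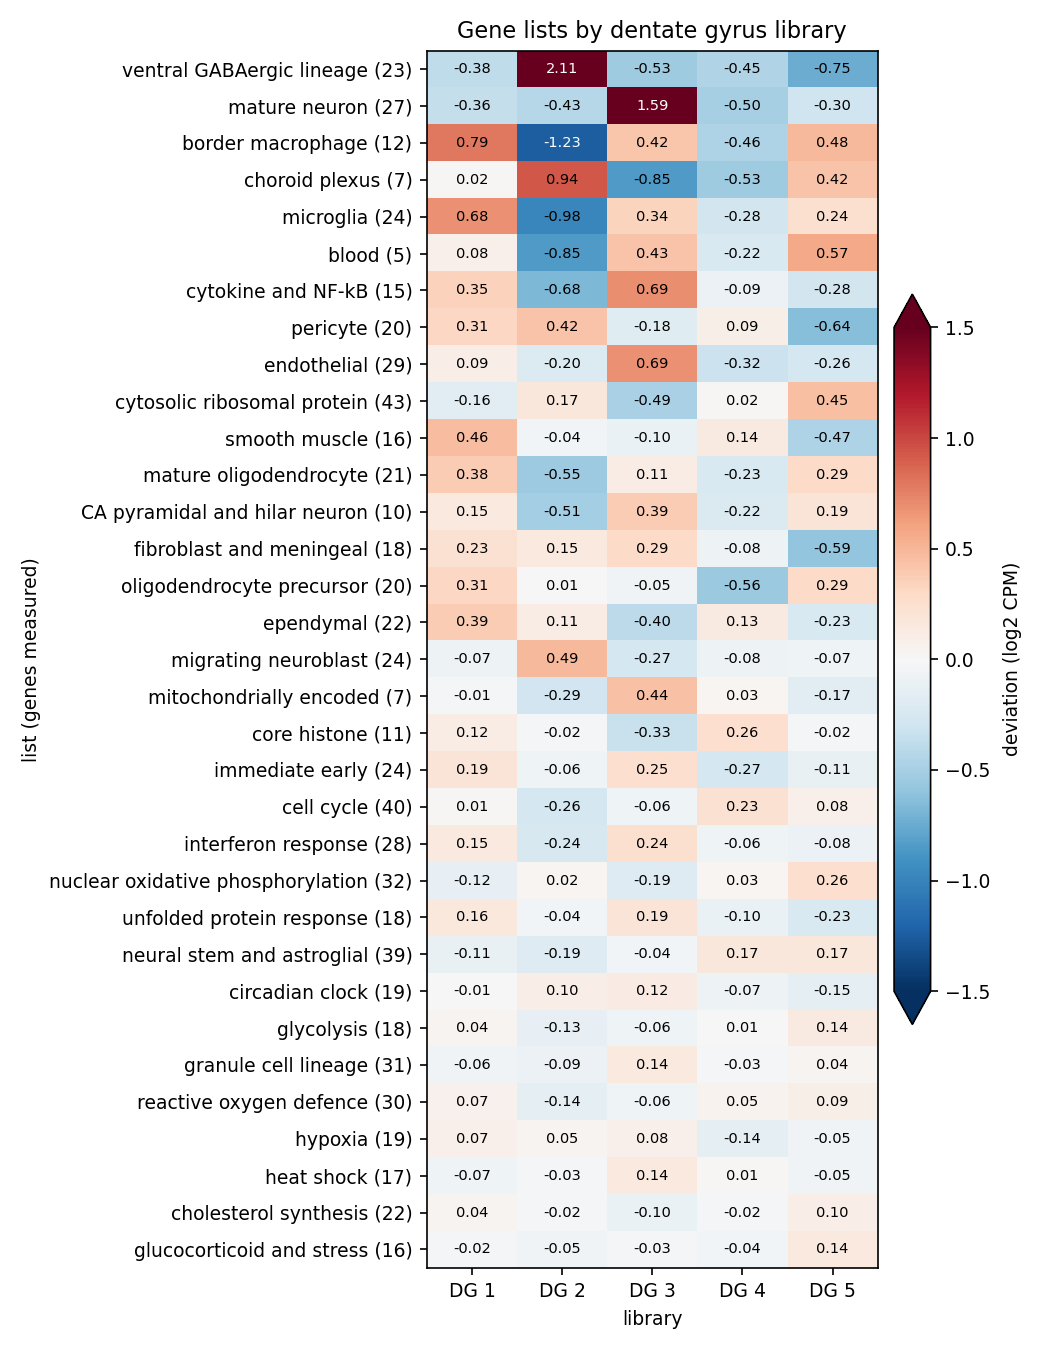
Deviation of each gene list's mean from its own average over the 5 dentate gyrus libraries (log2 CPM, red above and blue below, numbers in the cells), with libraries as columns and lists as rows ordered by range, the number of measured genes in brackets and sex-linked genes omitted. The strongest cells are ventral GABAergic lineage in DG 2 (2.11), mature neuron in DG 3 (1.59) and border macrophage in DG 2 (-1.23).

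DG 3 was high in genes of mature neurons. The 27 measured genes of that list had means of 4.30, 4.23, 6.26, 4.17 and 4.37 log2 CPM in DG 1 to DG 5, and without DG 3 their range was 0.20. DG 3 was the highest library in 24 of the 27 genes, against 26.7% of all genes, and at least 2-fold above the other 4 in 19 of them, against 2.58%. The median range of the list was 2.34, against 0.60 over all genes. Together these genes took 0.457% of the reads in DG 3 and 0.168% to 0.178% in the other libraries.

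The gene with the widest gap was Mal2 (chr15:54571192-54602847, plus strand), a membrane trafficking protein, at 1.71, 1.48, 7.56, 1.80 and 3.38 log2 CPM. DG 3 was 18.2-fold above the next library. DG 5 was the second highest, far below DG 3. Nptx1, a secreted synaptic pentraxin, stood at 2.29, 1.60, 7.04, 2.53 and 3.20, and Adcy1, an adenylate cyclase of neurons, at 3.40, 2.55, 7.60, 3.55 and 3.96. Slc24a2, a sodium, calcium and potassium exchanger, stood at 2.68, 1.76, 6.21, 2.80 and 2.90.

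Synaptic vesicle and receptor genes gave the same picture. Syt1, the calcium sensor of vesicle release, stood at 4.25, 4.41, 8.09, 4.26 and 4.43 log2 CPM, and the other 4 libraries lay close together. Camk2a, a kinase of excitatory synapses, stood at 4.69, 3.88, 7.40, 4.95 and 5.10. The NMDA receptor subunit gene Grin2a stood at 0.97, 1.49, 6.79, 2.22 and 2.75, and the vesicular glutamate transporter gene Slc17a7 at 1.12, 0.54, 5.74, 0.96 and 1.95. The last is a gene of mature excitatory neurons, and in DG 3 it stood 13.8-fold above the next library. Calb1, a calcium buffer of mature granule cells among other neurons, was low throughout, at 0.18, 0.54, 3.01, 0.90 and 1.55. Snap25, of the vesicle fusion machinery, differed less and stood at 6.94, 6.86, 7.86, 6.83 and 7.19. Map2 (9.22, 9.50, 9.36, 9.43 and 9.24), a microtubule protein, and Rbfox3 (4.54, 4.20, 4.60, 4.40 and 4.17), which encodes the nuclear antigen NeuN, did not share the gap. The 10 genes of CA pyramidal and hilar neurons had means of 3.90, 3.25, 4.14, 3.54 and 3.95, with DG 3 highest by less than the spread of the other 4.

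Scg2, which encodes the granule protein secretogranin II, stood at 3.47, 2.60, 7.83, 3.85 and 4.38 log2 CPM. Its promoter is printed because it holds the cAMP response element TGACGTCA, in capitals, 68 bases before the start. The window is chr1:79439977-79440276 of GRCm38.p6, the assembly of mm10, on the minus strand.
Scg2: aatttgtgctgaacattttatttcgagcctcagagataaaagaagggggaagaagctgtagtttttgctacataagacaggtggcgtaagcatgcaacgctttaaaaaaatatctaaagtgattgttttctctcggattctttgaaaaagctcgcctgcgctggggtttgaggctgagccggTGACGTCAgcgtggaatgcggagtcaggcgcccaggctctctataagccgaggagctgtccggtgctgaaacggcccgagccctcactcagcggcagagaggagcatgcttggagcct
Searched on both strands, this element was found in 2.03% of the 27025 genes with a promoter in the RefSeq table and in 2 of the 16 mature neuron genes there. A match is a description of the letters and not of a bound site.

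Other features moved with the neuronal genes in DG 3. Endothelial genes had means of 6.41, 6.12, 7.01, 5.997 and 6.06 log2 CPM over 29 genes, with a range of 0.42 without DG 3. DG 3 was the highest in 26 of them, against 26.7% of all genes. Vwf, a clotting protein of endothelial cells, stood at 3.99, 3.69, 5.55, 3.51 and 3.74, and Flt1, a VEGF receptor, at 7.06, 7.03, 8.03, 6.70 and 6.94. In both genes DG 3 stood clear of 4 libraries that lay close together. Cldn5, a tight junction protein of brain vessels, differed from these in having a wide spread among all libraries, at 6.38, 4.77, 7.01, 5.38 and 3.67. The 7 measured protein-coding genes of the mitochondrial genome, of 13 in the list, were highest in DG 3, against 26.7% of all genes, with list means of 8.58, 8.31, 9.03, 8.63 and 8.42 and a range of 0.32 without DG 3. The mitochondrial ribosomal RNA genes, which are not in the list, did not share this order: mt-Rnr2 was lowest in DG 3 and highest in DG 4 at 10.81, 10.68, 10.66, 11.05 and 10.86, and mt-Rnr1 was highest in DG 5 at 8.16, 7.92, 8.56, 8.54 and 8.65.

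The 359 genes in which DG 3 was above the rest had a median exon length of 5898 bases, against 4488 for all 13929 genes, and 3 of them are on the Y chromosome. Long genes were in general higher in DG 3: protein-coding genes of over 8 kb deviated by a median of 0.14 log2 units there and those of up to 1 kb by -0.25. With the median of each length class removed, the mature neuron list still ranged by 2.01 and the endothelial list by 1.01, a correction chosen after the data were seen. The part of sex-linked genes, RNA quality and dissection in this library was not tested.

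DG 2 was high in genes of GABAergic lineages of ventral forebrain origin, which elsewhere in the adult brain make olfactory bulb interneurons. The 23 measured genes of this list had means of 1.79, 4.28, 1.64, 1.72 and 1.42 log2 CPM, and without DG 2 their range was 0.37. DG 2 was the highest library in 20 of the 23, against 21.6% of all genes. The median range was 4.03, against 0.60 over all genes, although 6 of the 23 had a mean below 0 log2 CPM. With no filter on level, DG 2 was at least 2-fold above all other libraries in 13 of the 23. Among the 13929 genes averaging at least 0 log2 CPM this held for 56 (0.402%), of which 11 belonged to this list.

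The widest gap was that of Dlx6os1 (chr6:6820189-6871592, minus strand), a noncoding RNA of the Dlx5 and Dlx6 locus, at 3.49, 8.61, 3.84, 4.01 and 3.43 log2 CPM. The homeobox gene Dlx1 stood at 2.40, 6.14, 2.27, 2.75 and 1.88, and Meis2, another homeobox gene, at 2.64, 6.23, 2.47, 2.47 and 2.19. DG 2 was alone in all of these, and the other 4 libraries overlapped closely. Sp8, a zinc finger factor of the same lineage, stood at 3.23, 6.98, 3.82, 4.07 and 3.65, and Prokr2, a receptor of migrating neuroblasts, at 2.81, 6.32, 3.18, 2.99 and 1.89. Tiam2, which regulates Rac signalling in neurites and is in no list, stood at 4.95, 8.40, 5.18, 5.22 and 4.83. Gad2, an enzyme of GABA synthesis, was high in DG 2 and second in DG 3 at 1.08, 5.75, 2.93, 1.89 and 1.30, and Gad1 showed the same order of these libraries at 4.00, 6.26, 5.35, 3.52 and 4.01. Synpr, a synaptic vesicle protein and an abundant member, was an exception and was highest in DG 3 at 6.18, 6.64, 8.58, 5.92 and 6.29. Dlx1 overlaps the antisense gene Dlx1as, and Dlx6os1 overlaps small RNA genes, so these reads may be shared.

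The promoter of Dlx6os1 is shown because it carries 2 copies of TAATTA, the core that homeodomain proteins such as the Dlx factors recognise, in capitals. The window is chr6:6869484-6869783 of GRCm38.p6 on the minus strand, the first of 2 promoters that RefSeq gives for the gene.
Dlx6os1: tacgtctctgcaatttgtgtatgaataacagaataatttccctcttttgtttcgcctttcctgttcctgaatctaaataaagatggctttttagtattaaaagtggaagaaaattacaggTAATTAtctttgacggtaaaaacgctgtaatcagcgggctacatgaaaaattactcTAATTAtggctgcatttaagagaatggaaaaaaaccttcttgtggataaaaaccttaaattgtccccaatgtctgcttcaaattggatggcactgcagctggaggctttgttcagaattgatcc
The letters TAATTA occurred on either strand in the promoters of 6.12% of all 27025 genes and in those of 2 of the 16 ventral lineage genes with an entry. This again describes letters in the window only.

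Neuroblast genes were also highest in DG 2, by a smaller margin. The 24 genes of this list had means of 7.98, 8.54, 7.78, 7.97 and 7.98 log2 CPM, with a range of 0.20 without DG 2. DG 2 was the highest in 21, against 21.6% of all genes. Stmn2, a microtubule regulator of growing neurites, stood at 7.44, 8.62, 6.97, 7.46 and 7.53, and Rnd3, a small GTPase of migrating cells, at 6.9965, 8.45, 7.08, 7.27 and 6.77. Tubb3, the neuronal beta tubulin, stood at 10.35, 11.20, 9.75, 10.25 and 10.36. Each was highest in DG 2, and Stmn2 and Tubb3 were lowest in DG 3, the library high in mature neuron genes. Dcx followed the same order at its ends, at 7.94, 8.57, 7.60, 7.86 and 7.67. Of the 39 stem and astroglial genes, only Nes, Sox2 and Wnt8b were highest in DG 2, Nes by 1.72-fold over the next library and the others by little. Most of that list did not follow Nes: DG 2 was the lowest library in 20 of the 39, against 15.7% of all genes.

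Ttr, the thyroid hormone carrier that choroid plexus makes in great amounts, had the widest range after Ddx3y, Uty and Mal2 among genes averaging at least 3 log2 CPM, at 2.04, 7.48, 1.51, 1.46 and 4.61 log2 CPM. DG 2 was highest and DG 5 second, and the other 3 libraries were low. Over the 7 choroid plexus genes measured, Ttr among them, the means were 2.58, 3.50, 1.72, 2.04 and 2.99. Folr1, a folate receptor, was also at least 2-fold above the rest in DG 2, at a low level, with 0.68, 1.81, -2.01, 0.27 and 0.62. Otx2, a homeobox factor, was highest in DG 2 by little, and the other 4 genes were highest in DG 5. Among these was Enpp2, the most abundant of the list and also a gene of other cells, at 9.16, 9.21, 9.07, 8.73 and 9.42. The part of tissue next to the dentate gyrus, carried in by the dissection, in the levels of Ttr and the Dlx genes was not tested.

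**Figure D4:**
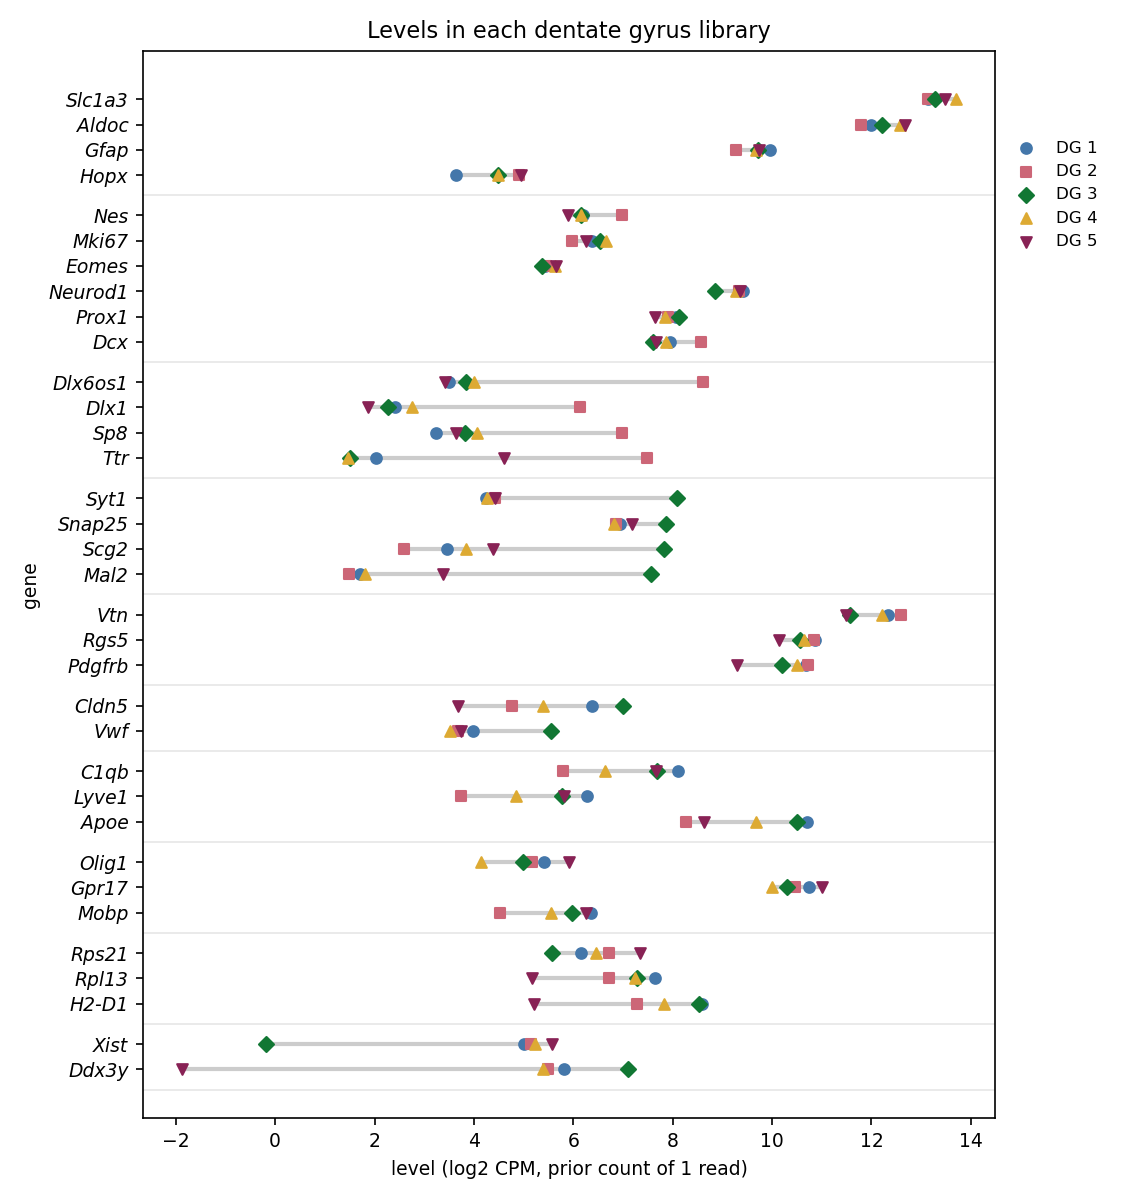
Level of genes of each role (rows) in each of the 5 dentate gyrus libraries (coloured symbols) in log2 CPM, with a grey line from the lowest to the highest library. Eomes and Gfap have short lines, Dlx6os1 and Ttr extend to DG 2 at 8.61 and 7.48, Mal2 and Scg2 to DG 3 at 7.56 and 7.83, and Ddx3y reaches down to -1.88 in DG 5.

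Genes of immune cells ran in a graded order, highest in DG 1 and lowest in DG 2. The 24 microglial genes had means of 5.50, 3.84, 5.15, 4.54 and 5.06 log2 CPM, with DG 1 the highest in 20, against 20.9% of all genes, and DG 2 the lowest in 21, against 15.7%. Their median range was 1.96, and without DG 2 the range of the mean was 0.96. The 12 genes of border macrophages, which line vessels and meninges, had means of 6.40, 4.37, 6.02, 5.15 and 6.09, and all 12 were lowest in DG 2, without which the range was 1.25.

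C1qb (chr4:136880129-136886187, minus strand), a chain of complement C1q, stood at 8.12, 5.80, 7.69, 6.64 and 7.67 log2 CPM. Csf1r, the receptor that microglia and macrophages depend on, stood at 8.58, 6.56, 8.22, 7.46 and 7.99, and Cx3cr1, the fractalkine receptor, at 6.40, 4.64, 6.02, 5.61 and 5.59. The libraries took nearly the same places in each, with DG 2 lowest and DG 1 highest. Among border macrophage genes, Lyve1 stood at 6.28, 3.74, 5.77, 4.84 and 5.81, and Stab1, a scavenger receptor, at 7.67, 5.26, 7.29, 6.18 and 6.91. Sall1, a microglial transcription factor that neural stem cells also express, went the other way, with DG 2 highest at 5.86 and DG 1 lowest at 5.22. Of the 90 genes in which DG 2 was at least 2-fold below the rest, Ifi207 (4.23, 1.28, 4.02, 3.09 and 3.61), Cd86 (4.47, 1.69, 4.04, 3.33 and 4.03) and Hk3 (4.67, 1.99, 3.90, 3.63 and 4.20) had wide gaps, and Cd86 and Hk3 are known from myeloid cells.

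Cytokine genes followed a related order. The 15 measured genes had means of 2.38, 1.36, 2.73, 1.95 and 1.76 log2 CPM, and the chemokine Ccl7 stood at 4.40, 1.29, 4.09, 3.07 and 2.75. Of 28 interferon response genes, 18 were lowest in DG 2, against 15.7% of all genes, but the list mean ranged by only 0.47. Blood genes, 5 in number and mostly globins, were lowest in DG 2 in all 5, against 15.7% of all genes. In 4 of them DG 5 was highest, against 20%. Their means were 4.59, 3.66, 4.94, 4.29 and 5.09, with a range of 0.797 without DG 2. With the length class medians removed, the blood mean was highest in DG 3 at 5.14, with DG 5 at 4.77. Apoe (chr7:19696109-19699188, minus strand) had the widest range of the stem and astroglial list, at 10.71, 8.26, 10.51, 9.69 and 8.63. It shared the high values of DG 1 and DG 3 and the low value of DG 2 with the immune genes, but was also low in DG 5, where microglial genes were not. Mature oligodendrocyte genes shared the ends of the order as well. The 21 genes had means of 6.53, 5.61, 6.27, 5.93 and 6.44, with a range of 0.60 without DG 2. DG 2 was the lowest in 15, against 15.7% of all genes. Mobp, a myelin protein, stood at 6.35, 4.52, 5.98, 5.55 and 6.26. The immune, blood and myelin lists thus had DG 2 at the bottom, where Nes and neuroblast genes were at their highest.

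Genes of pericytes were highest in DG 2 and DG 1 and lowest in DG 5. The 20 genes had means of 8.06, 8.17, 7.56, 7.83 and 7.11 log2 CPM, with DG 2 the highest in 17 and DG 5 the lowest in 16, against 21.6% and 31.6% of all genes. Without DG 5 the range was 0.61. Vtn stood at 12.34, 12.59, 11.57, 12.21 and 11.49, Pdgfrb, the receptor that recruits pericytes, at 10.69, 10.73, 10.20, 10.51 and 9.29, and Atp13a5, a transporter, at 10.24, 10.44, 9.72, 10.11 and 8.98. Rgs5, a G protein regulator of mural cells, had a narrower range than these 3 genes, 0.71, at 10.86, 10.85, 10.56, 10.65 and 10.15, and DG 1 and DG 2 were level in it. The commonest order of the libraries, from DG 2 through DG 1, DG 4 and DG 3 to DG 5, was shared by 8 of the 20 genes. DG 3 was therefore high in endothelial genes and second lowest in pericyte genes.

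Smooth muscle genes were highest in DG 1 in 13 of 16, against 20.9% of all genes. Their means were 5.77, 5.27, 5.21, 5.45 and 4.84 log2 CPM, a range of 0.93 that was 0.60 without DG 1 and 0.56 without DG 5. Myh11, the smooth muscle myosin heavy chain, stood at 7.09, 6.14, 6.51, 6.66 and 5.01. Fibroblast and meningeal genes had means of 5.02, 4.94, 5.08, 4.71 and 4.19, with a range of 0.36 without DG 5. DG 5 was the lowest in 12 of 18, against 31.6% of all genes. The collagen gene Col3a1 was 1 of the 8 genes that met the 2-fold margin upward in DG 1, at 5.70, 4.68, 4.51, 4.68 and 3.68. DG 5 was thus lowest on average in each of the 3 lists of vessel wall and matrix cells.

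DG 5 was at least 2-fold below all other libraries in 212 genes. Their median mean level was 3.66 log2 CPM, against 4.52 over all 13929 genes, and 84.9% were protein coding, against 92.97%. Of the 212, 17 were in any list, against 685 of all 13929 genes. H2-D1 (chr17:35262730-35267499, plus strand), a class I histocompatibility gene, stood at 8.59, 7.28, 8.53, 7.83 and 5.22, so that DG 5 was 4.17-fold below the next library. Psmd5, a proteasome assembly chaperone, stood at 7.04, 6.44, 6.96, 6.87 and 4.13, and Isyna1, the enzyme of inositol synthesis, at 6.37, 5.76, 6.10, 5.85 and 3.64. In these genes the other 4 libraries lay closer together than DG 5 lay to any of them. H2-D1 has near-identical copies in its family, among which reads may be split differently. B2m, the partner chain of class I proteins, did not share the gap, with a range of only 0.40.

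Further genes with this shape were Aplp2, a relative of the amyloid precursor, at 10.18, 9.46, 10.14, 9.78 and 7.86, and Fth1, the ferritin heavy chain, at 10.20, 9.82, 10.36, 10.20 and 8.57. Sod3, the secreted superoxide dismutase, stood at 8.21, 6.51, 7.83, 7.42 and 4.79, Tbxa2r, the thromboxane receptor, at 4.87, 3.92, 3.84, 4.29 and 1.25, and Rem1, a small GTPase, at 5.23, 4.58, 4.76, 4.38 and 1.96. These genes have no single cell type in common, and Fth1 and Aplp2 are expressed by most cells. Hist1h1c, a linker histone gene, was low in DG 5 as well at 5.92, 4.94, 4.92, 5.63 and 3.41. Of the 212 genes, 84.9% were protein coding, against 93% of all 13929, 4 were on the Y chromosome, and the median exon length was 3769.5 bases, against 4488.

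In the opposite direction DG 5 was high in short genes. Cytosolic ribosomal protein genes had means of 7.46, 7.79, 7.13, 7.64 and 8.07 log2 CPM over 43 genes, with DG 5 the highest in 42 and DG 3 the lowest in 39, against 20% and 24.6% of all genes. The order DG 5, DG 2, DG 4, DG 1, DG 3 was shared by 36 of the 43. Rps21 stood at 6.15, 6.72, 5.58, 6.47 and 7.33, and Rps12 at 5.79, 6.27, 5.17, 5.98 and 6.65. Over all 13929 genes this order was found in 494, or 3.55%. The 95 of these with a range of at least 2-fold had a median exon length of 1372 bases. Of the 95, 22 were cytosolic ribosomal protein genes. Of 32 nuclear genes of oxidative phosphorylation, 25 were highest in DG 5 and 22 lowest in DG 3, with means of 6.91, 7.05, 6.83, 7.06 and 7.28, whereas the 7 measured protein-coding genes of the mitochondrial genome, though not its ribosomal RNA genes, were highest in DG 3. The range of the ribosomal protein list, 0.94, was 0.61 without DG 3, and that of the oxidative phosphorylation list, 0.45, was 0.22 without DG 5.

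Gene length moved with this pattern. Protein-coding genes with up to 1 kb of exons (211 genes) had median deviations of -0.15, 0.01, -0.25, 0.03 and 0.39 log2 units in DG 1 to DG 5, and those over 8 kb (2536 genes) of 0.03, 0.04, 0.14, -0.03 and -0.17. From class to class the medians went up in DG 3 and down in DG 5 at every step, and moved little in DG 2 and DG 4. The slope was also there without ribosomal protein genes, with DG 5 at 0.38 for the shortest class. With the class medians removed, the range of the ribosomal list was 0.73 in place of 0.94 and that of the oxidative phosphorylation list 0.27 in place of 0.45. The part of cDNA length and fragmentation in this pattern was not tested.

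**Figure D5:**
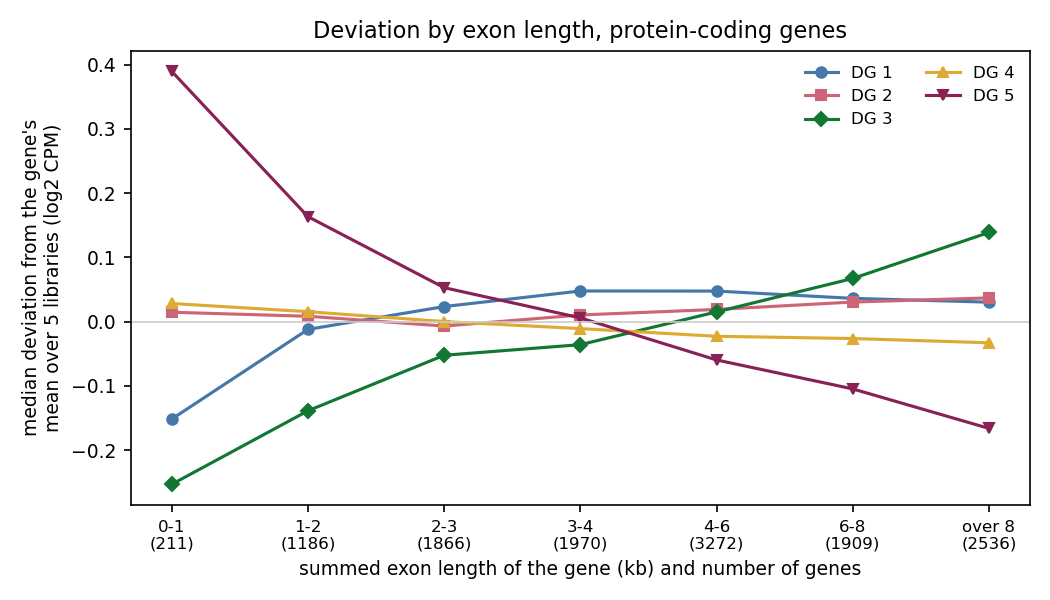
Median deviation of protein-coding genes from their own mean over the 5 dentate gyrus libraries (y axis, log2 CPM) by summed exon length in kb (x axis, number of genes in brackets), with 1 line per library. DG 5 runs from 0.39 in the shortest class to -0.17 in the longest, DG 3 from -0.25 to 0.14, and DG 2 and DG 4 stay within 0.04 of 0.

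The single ribosomal protein gene far from the others was Rpl13 (chr8:123102350-123105244, plus strand), at 7.65, 6.72, 7.29, 7.25 and 5.17 log2 CPM. It was lowest in DG 5, by 2.94-fold below the next library, where 42 of the 43 genes were highest. It holds a small nucleolar RNA gene and a microRNA gene within its span. The promoters of Rps12 and Rpl13 are shown as one that followed the list and one that did not. The capitals mark CTTTC or CTTTTC, a pyrimidine stretch typical of ribosomal protein genes at their start, and in Rpl13 also TGACGTCA. The last 50 bases of each window begin at the start. The windows are chr10:23787160-23787459 on the minus strand and chr8:123102100-123102399 on the plus strand of GRCm38.p6.
Rps12: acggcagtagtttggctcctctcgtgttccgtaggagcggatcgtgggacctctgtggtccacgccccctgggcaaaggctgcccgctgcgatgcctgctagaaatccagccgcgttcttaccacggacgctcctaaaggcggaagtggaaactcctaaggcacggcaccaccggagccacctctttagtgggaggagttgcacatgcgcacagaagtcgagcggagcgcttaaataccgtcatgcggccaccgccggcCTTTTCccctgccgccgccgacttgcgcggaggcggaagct
Rpl13: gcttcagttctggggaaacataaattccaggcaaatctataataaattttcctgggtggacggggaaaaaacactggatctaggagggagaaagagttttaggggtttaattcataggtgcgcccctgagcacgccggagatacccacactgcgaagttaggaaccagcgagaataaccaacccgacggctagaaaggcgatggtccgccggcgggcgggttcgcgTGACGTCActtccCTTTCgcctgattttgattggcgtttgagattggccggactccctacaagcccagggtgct
CTTTC or CTTTTC lay on the gene's strand, from 20 bases before the start to 30 bases on, in the promoters of 9.35% of all 27025 genes and in those of 10 of the 30 ribosomal protein genes with an entry. The element TGACGTCA, found in 2.03% of all genes, was present in 4 of these 30. Both windows have the pyrimidine stretch, so it does not separate the 2 genes.

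DG 4 was low in genes of oligodendrocyte precursors, the dividing glia that also express proteoglycan NG2. The 20 genes had means of 6.51, 6.21, 6.15, 5.64 and 6.50 log2 CPM, with DG 4 the lowest in 16, against 16.7% of all genes, and without DG 4 the range was 0.36. Olig1, a transcription factor of the lineage, stood at 5.41, 5.17, 4.99, 4.15 and 5.91. Pdgfra, the growth factor receptor that defines these cells, stood at 10.15, 9.69, 9.46, 8.75 and 10.08. Gpr17, a receptor of committed precursors, stood at 10.74, 10.46, 10.31, 10.01 and 11.01, and Lhfpl3 at 7.16, 6.85, 6.60, 5.76 and 7.12. DG 4 was the lowest library in all 4 genes, with DG 3 the next lowest. Matn4, a matrix protein, did not follow, at 5.26, 3.29, 4.45, 3.18 and 2.00.

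Among the 40 genes in which DG 4 met the 2-fold margin downward were Tmem179 (4.96, 4.57, 5.66, 3.12 and 4.66), the acetylcholine receptor subunit gene Chrna4 (4.23, 3.85, 4.03, 2.62 and 4.51) and the homeobox gene Meox1 (3.68, 3.42, 2.62, 1.44 and 4.33). Spon1, a secreted adhesion protein, stood at 7.86, 7.91, 7.92, 6.68 and 7.87 log2 CPM, flat in 4 libraries and low in DG 4. No gene met the margin upward. The widest gap above was that of Thbs4, a secreted thrombospondin of astroglia, at 5.24, 5.00, 5.41, 6.29 and 5.43.

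Stem and astroglial genes were a little higher in DG 4 and DG 5. The 39 genes had means of 7.24, 7.16, 7.32, 7.52 and 7.52 log2 CPM, a range of 0.37, and 17 were highest in DG 5 and 11 in DG 4, against 20% and 10.8% of all genes. DG 2 was the lowest in 20 of the 39, against 15.7% of all genes. The median range of the list was 0.69, near the 0.60 of all genes. Of its genes, 6 ranged by at least 2-fold, against 22.6% of the 13929 genes described. Slc1a3 stood at 13.13, 13.14, 13.28, 13.70 and 13.48, Aldoc at 12.00, 11.79, 12.22, 12.58 and 12.67, and Etnppl, an enzyme of astrocytes, at 4.18, 4.09, 4.31, 5.20 and 5.01. In these 3 genes DG 4 and DG 5 were the upper pair. Hopx, expressed in quiescent stem cells, differed in being low in DG 1, at 3.64, 4.91, 4.48, 4.49 and 4.95, and it overlaps the antisense gene Hopxos. Metallothionein genes had the same upper pair as the astroglial ones, with Mt1 at 8.41, 8.71, 8.55, 9.09 and 9.74 and Mt3 at 8.03, 8.07, 8.02, 8.80 and 9.17.

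The mean of the cell cycle genes was highest in DG 4 and lowest in DG 2. The 40 genes had means of 6.04, 5.76, 5.96, 6.25 and 6.10 log2 CPM, with DG 4 the highest in 20, against 10.8% of all genes, and DG 2 the lowest in 24, against 15.7%. The range of 0.49 was 0.29 without DG 2. Top2a, a topoisomerase of dividing cells, stood at 8.65, 8.19, 8.61, 9.04 and 8.68, Cenpf, a kinetochore protein, at 6.46, 5.52, 6.49, 6.78 and 5.80, and the mitotic kinase gene Plk1 at 5.70, 4.62, 5.57, 5.78 and 5.70. DG 2 was lowest in each of these mitotic genes. Ccnd2, the D-type cyclin of neural progenitors and the most abundant gene of the list, went the other way with DG 2 highest, at 9.89, 10.73, 10.22, 10.51 and 10.28. Ccne1 and Ccne2 were also highest in DG 2, at 2.58 and 4.51 there. Pcna, at 6.05, 6.39, 5.93, 6.31 and 6.52, and the Mcm genes of the list were not lowest in DG 2. As a share of reads, the list was lowest in DG 1 (0.449%), beside 0.481% in DG 2. Mcm6, of the replication helicase, stood at 6.84, 5.88, 6.51, 6.74 and 5.20, whereas its partner Mcm5 was highest in DG 5 at 7.22, 7.51, 7.08, 7.51 and 7.76.

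The granule lineage was the steadiest of the lineage lists. Its 31 genes had means of 5.06, 5.03, 5.26, 5.09 and 5.16 log2 CPM, a range of 0.24. Of these genes, 4 ranged by at least 2-fold, against 22.6% of the 13929 genes described. The median range was 0.60, the same as over all genes. Prox1 stood at 8.07, 7.90, 8.12, 7.86 and 7.65, and Neurod1 at 9.42, 9.33, 8.86, 9.28 and 9.36. Eomes ranged by 0.29 in all, and Neurod4, a related factor of progenitors, stood at 6.40, 6.35, 6.10, 6.37 and 6.53. Neurod1 and Neurod4 were both lowest in DG 3, while Slc17a7 and Calb1, list members expressed in mature neurons and not in granule cells alone, were far higher there. Zbtb20, a factor of hippocampal neuron identity, stood at 10.32, 10.21, 10.69, 10.38 and 9.76. Without DG 3 the range of the list mean was 0.13. Prox1 and Neurod1 each overlap another gene (Prox1os and Cerkl), with which unstranded reads may be shared.

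Lists of stress and metabolism were flat by comparison. Cholesterol synthesis genes ranged by 0.20 in the mean, and 0 of 22 ranged by at least 2-fold, against 22.6% of the 13929 genes described. In this list Hmgcs1 stood at 8.86, 8.77, 8.60, 8.96 and 9.03 log2 CPM. Heat shock genes (17) ranged by 0.21, hypoxia genes (19) by 0.22, genes of reactive oxygen defence (30) by 0.23, glycolysis genes (18) by 0.26 and clock genes (19) by 0.27. Leaving out 1 library narrowed the range to 0.12 for cholesterol synthesis and 0.081 for heat shock (without DG 3), 0.13 for hypoxia (without DG 4), 0.15 for reactive oxygen defence (without DG 2) and 0.17 for glycolysis (without DG 5). Immediate early genes, which dissociation is known to induce, had means of 4.32, 4.07, 4.38, 3.86 and 4.02. Fos stood at 7.61, 7.71, 7.48, 6.92 and 7.49, and Fosb was more uneven at 4.27, 2.79, 3.49, 2.04 and 2.43. Genes of the unfolded protein response had means of 5.69, 5.49, 5.72, 5.43 and 5.30. DG 3 was the highest in 11 of 18, against 26.7% of all genes. Hspa5, the chaperone of the endoplasmic reticulum, was highest in DG 3 at 10.47, 10.38, 11.13, 10.33 and 10.35. Core histone genes were lowest in DG 3 in 8 of 11, against 24.6% of all genes. Their mean ranged by 0.59, or by 0.28 without DG 3. With the length class medians removed, the lowest mean of this list was 5.0397 in DG 5, beside 5.0407 in DG 3. Genes of ependyma, the ciliated cells along the ventricles, were low on average. The list means ran from 1.00 (DG 3) to 1.78 (DG 1) over 22 genes, 5 of which averaged under 0 log2 CPM. The members with the highest means were Rarres2 at 5.59 and Tekt1 at 3.67.

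The order of the 5 libraries in each gene gives another view of which genes varied together. All 120 possible orders occurred among the 3142 genes with a range of at least 2-fold, and the 8 commonest held 931, or 29.6%. The commonest, from DG 3 through DG 1, DG 4 and DG 2 to DG 5, had 156 genes. The next commonest had 131, 117 and 112 genes, each with at most 4 genes of any list. The order from DG 1 through DG 3, DG 5 and DG 4 to DG 2 had 99 genes, or 3.15% of the 3142. It held 9 of the 20 microglial and 4 of the 12 border macrophage genes with a range of at least 2-fold. The order from DG 3 through DG 1, DG 5 and DG 2 to DG 4 had 108 genes (3.44%). It held 5 of the 20 such endothelial genes. The order from DG 2 through DG 1, DG 4 and DG 3 to DG 5 had 76 (2.42%). It held 7 of the 13 such pericyte genes. Most genes of each of these orders were in no list.

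Likeness to 7 marker genes was measured as the Euclidean distance between profiles over the 5 libraries, each centred and divided by its SD, among 1466 genes averaging at least 3 log2 CPM and a range of at least 2-fold. With 5 libraries such a distance is a description only. The genes nearest to Dlx2 were Meis2 (distance 0.341), Sox2ot, Dlx1 and Nes (0.442). Meis2 and Dlx1 stood below 3 log2 CPM in every library but DG 2, so they met the limit on level through DG 2 alone. The genes nearest to Cx3cr1 were Il10ra (0.274), C4b, Cd84 and Hpgds, and those nearest to Rgs5 included Igf2 (0.190), Abcc9, Ednra and Notch3. Snap25 was nearest to Kcnab2 (0.0863), Pgbd5, Caly and Sv2a, and Mki67 to Cenpf (0.596), Kif14, Alpk1 and Aspm. Cldn5 was nearest to Sec14l1 (0.0443), which stood at 5.61, 4.73, 5.92, 5.04 and 4.16 log2 CPM, and then to Zcrb1, Sgcb and Pex13. Fos was nearest to Rps6ka6 (0.473), Sntg1 and Spon1 (0.613), all of them lowest in DG 4.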

How the data were processed

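RNA-seq libraries of sorted Nestin-GFP positive cells (5 from the dentate gyrus, of 9 in the series) were described. The values deposited by the authors are log2 CPM, although the table is presented as counts, and per the submitters' processing notes STAR, edgeR and the mm10 build were used. Tool versions, the read counter, the annotation and the filter on low genes are not stated there. Every deposited log2 value was given back within 5.15e-14 by a prior count of 1 read scaled to library size, and the reads recovered this way were whole for 100% of values (tolerance 0.001, largest distance 9.49e-09). No column lacked a sample. Chi-square per degree of freedom ran from 44.3 to 172 between libraries, so no pair agreed within counting noise.

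From these values, ranges, SDs (n = 5), principal components, list means and CPM per kb of exons were computed with Python 3.11.15, numpy 2.4.6, pandas 2.3.3 and scipy 1.17.1, and figures with matplotlib 3.10.9. Genes averaging under 0 log2 CPM were left out of counts of spread. The scripts were tested on simulated data. Coordinates and symbols came from GENCODE M21 (14433 of 14477 identifiers matched) and promoters from RefSeq (GRCm38.p6).

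Named genes were the 20 most abundant per kb, the widest, steadiest and most separate genes averaging at least 3 log2 CPM, the component ends, 2 top and 2 widest members of each list, genes most like 7 markers, and 12 lineage and sex genes. A few genes under this rule are not reported here. Other list members are examples chosen after their values were seen. The libraries, the 34 lists (767 names, 67 of them not in the table) and the rules were chosen with earlier results of these data known. The alternatives were TMM scaling (written in Python), a prior count of 5, other filters, no division by length, and each library left out. Removing length classes was added after seeing the data. No test was made, since the libraries form a single group.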

Additional observations from a re-analysis of the deposited data

Results flagged for a closer look

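Each library's distance from the others was examined for 71 list means and named genes, as the gap between an end library and its nearest neighbour divided by the whole range of the 5 libraries. A ratio above 0.71 was used to mark a library far from the others, and 9 items were marked. The items share genes and the lists were chosen with earlier results known, so the 9 cannot be set against a chance rate. The mean of the ventral GABAergic lineage genes had a ratio of 0.870 and that of the neuroblast genes 0.738, both with DG 2 at the high end, as did Nes itself (0.716). The mature neuron mean had a ratio of 0.904 with DG 3 high, and Neurod1 had 0.752 with DG 3 low. Xist had a ratio of 0.902 with DG 3 low and Ddx3y 0.808 with DG 5 low, and the mean of the sex-linked genes had 0.932 with DG 5 low. The glucocorticoid and stress list had a ratio of 0.879 with DG 5 high, although its mean ranged by only 0.19 log2 units. The metallothionein genes Mt1 and Mt2 are its members with the widest ranges. With the length class medians removed, its mean was 5.17 in DG 5 beside 5.09 in DG 3, a narrower gap. The neuroblast mean was then 8.52 in DG 2 beside 8.02 in DG 5, also a narrower gap. The ratios were not computed again on these values.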

How the results depend on the processing

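Scaling by TMM left each of the counts and shares within its tolerance. DG 4 then stood apart in 29 genes in place of 40. Lists with a mean range of at least 2-fold were then 9 in place of 10, since the endothelial mean ranged by 0.98. With a prior count of 5 reads DG 4 stood apart in 25 genes. Without a filter DG 1 stood apart in 29 genes in place of 13. With only genes averaging at least 3 log2 CPM, 1466 genes ranged by at least 2-fold and 238 by at least 4-fold, and DG 1 to DG 5 stood apart in 1, 53, 177, 10 and 122 genes, since fewer genes were counted. By CPM without division by length, 13 of the 20 leading genes were the same.

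With each library left out in turn, genes with a range of at least 2-fold numbered 2027 to 2808, those of at least 4-fold 272 to 527, and lists with a mean range of at least 2-fold 5 to 10. The first component held 47.3% to 58.8% of the spread, in place of 44.3%, with fewer components to share it, and 19 to 20 of the leading genes were kept. Of the 34 list ranges, those that moved by over 1 SD numbered 0 without DG 1, 5 without DG 2, 7 without DG 3, 1 without DG 4 and 6 without DG 5, and 1 with length classes removed, that of oxidative phosphorylation. No paired analysis was possible because no result comes from a test between groups. Depth limits only the genes with few reads, where the prior count draws levels together.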
